A study of Rattus norvegicus with 4 samples.

Results

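The 8 genes described here encode signals, receptors and markers of the spermatogonial niche, the setting in which the stem and progenitor cells of the testis divide or differentiate. They were chosen by name: Kitlg and its receptor Kit, Gdnf with its co-receptor Gfra1 and its signalling receptor Ret, and the spermatogonial markers Epcam, Uchl1 and Cd9. The array table names 4737 genes in all. Every probe set paired with exactly 1 of the 8 symbols was taken, which gave 16 of the 8799 probe sets. RNA came from testes of male Sprague Dawley rats, an outbred laboratory strain, on Affymetrix rat U34 arrays of set A. In 2 samples the rats had been injected for 4 days with a sheep antibody against rat follicle-stimulating hormone (FSH), and in 2 control samples with a control sheep immunoglobulin (IgG) for the same time. The labels disagree on age. Every source name and description gives day 18. The treatment protocol starts injections on day 18 and collects on day 22, while the series design names day 14. FSH antibody replicate 2 is titled as postnatal day 4, so its group rests on its source name. By the protocol about 20 organs went into each RNA pool, and it calls them ovaries, whereas each source name gives the testis of 1 rat. Any p-value therefore measures the spread between these RNA samples, and the number of animals behind each is not settled.

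In the immature testis, Sertoli cells carry the FSH receptor and surround the germ cells. They make KIT ligand, which acts through the KIT receptor tyrosine kinase on differentiating spermatogonia, and glial cell line-derived neurotrophic factor (GDNF), which acts on undifferentiated spermatogonia through the GPI-anchored co-receptor GFRA1 and the tyrosine kinase RET. Leydig cells and mast cells also carry KIT, and peritubular myoid cells also make GDNF. In cultured rodent Sertoli cells, FSH and cAMP are known to raise transcripts of both ligands. The comparison asked whether these transcripts differed in the testis after FSH was suppressed for a few days.

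The deposited values were linear intensities. The median over all probe sets was 38.8 and 40.4 on the FSH antibody arrays, against 39.2 and 36.5 on the control IgG arrays. Differences below are the FSH antibody group minus the control IgG group, as log2(intensity + 16) ± SE with 2 arrays per group. This scale understates the change of dim probe sets. Intensities are not compared between probe sets, since each has its own probes. Probe sets whose mean log2 value reached the 40th percentile, an intensity of about 23.6, were tested with limma, and 5244 passed. Dim probe sets leaned higher on the FSH antibody arrays. Of the probe sets between the 40th and 60th percentiles of brightness, 63.3% had a log2 difference above 0 and 27.7% had both FSH antibody arrays above both control IgG arrays, whereas these shares were 49.1% and 16.5% above the 80th percentile. Marker genes of Sertoli cells and germ cells were read on the arrays, which does not by itself settle testis against ovary. Amh, the anti-Müllerian hormone of immature Sertoli cells, read 753.6 and 758.1 in the FSH antibody samples and 544.4 and 498.4 in the control IgG samples. Ddx4, an RNA helicase of germ cells, read 275.7 and 210.9 in the FSH antibody samples and 294.4 and 325.0 in the control IgG samples. Of the ovary genes, Zp3 and Cyp19a1 stayed under 11 on every array, while the zona pellucida genes Zp1 and Zp2 read 57.2 and 69.9, and 103.8 and 100.5, in the FSH antibody samples, against 51.6 and 37.5, and 84.5 and 91.0, in the control IgG samples.

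None of the 13 niche gene probe sets bright enough to be tested changed at an adjusted p under 0.05 (limma, Benjamini-Hochberg over all tested probe sets). The lowest adjusted p among them was 0.575. Among all 5244 tested probe sets 14 passed, or 0.267%, with 0.114% higher and 0.153% lower. At an unadjusted p under 0.05 there was 1 of the 13, Epcam, which is 7.69% of them beside 8.1% of all tested probe sets. That count was 0 with median centring and with no moderation. Niche gene counts from fits with an array left out are not used, since a group then holds a single array. The groups did not overlap for 3 of the 13, all higher in the FSH antibody samples (Gfra1, Ret and Epcam, on 1 probe set each), which is 23.1% beside 37.4% of all tested probe sets in either direction. The log2 differences ran from −0.13 to 0.63 with a median of 0.10, beside a median of 0.03 over all tested probe sets, and 10 of 13 were above 0, beside 55.3% of all tested. On the log2 scale with its added constant, the 95% intervals of the 13 probe sets all lay above a 2-fold fall, and 12 of them below a 2-fold rise. The exception was a Ret probe set. Fold values on this scale do not bound the change in intensity of dim probe sets, which the scale understates. Whether a 2-fold change in intensity lay outside the intervals of dim probe sets was not tested.

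**Figure D1:**
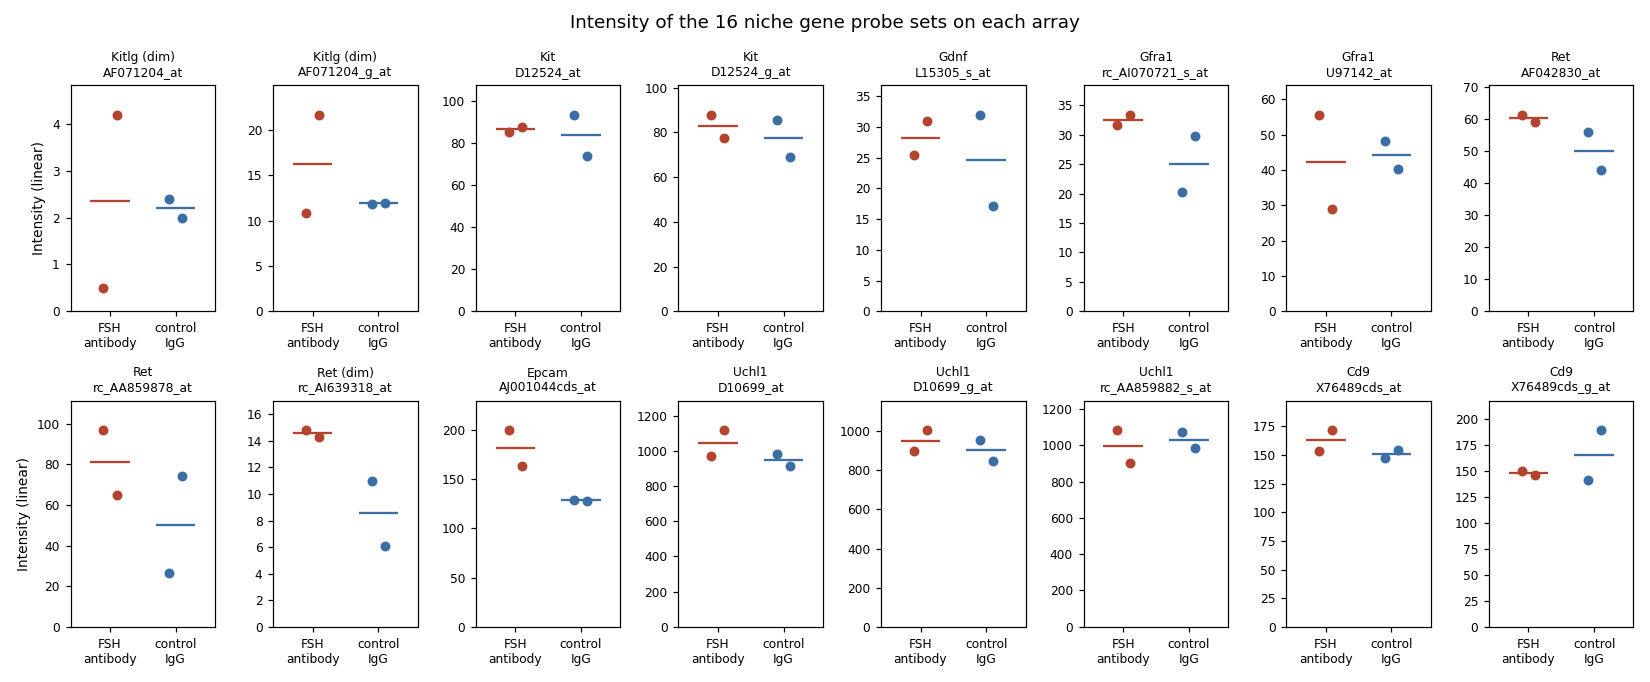
Linear intensity of each of the 16 niche gene probe sets, FSH antibody arrays on the left and control IgG arrays on the right of each panel. Points are single arrays and lines are group means (n = 2 each), every axis starts at 0, and panels marked dim fell below the level for testing. Only 3 of the tested panels, for Gfra1, Ret and Epcam, show the groups apart.

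Kitlg, the KIT ligand, was read at the dim end of the array by both of its probe sets. Probe set AF071204_at gave 0.5 and 4.2 in the FSH antibody samples, against 2.4 and 2.0 in the control IgG samples. The second, AF071204_g_at, gave 10.8 and 21.7 in the FSH antibody samples, against 11.8 and 12 in the control IgG samples. On both, the FSH antibody arrays lay on either side of the control IgG arrays. These probe sets ranked at percentiles 4.43 and 29.8 of brightness, below the level for testing, and without detection calls it cannot be told whether either was above background. In a fit with no filter their log2 differences were 0.0046 ± 0.11 and 0.19 ± 0.21, with limma adjusted p of 0.991 and 0.821. Both probe sets were designed from 1 sequence, so they are not independent measurements.

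The promoter of Kitlg is shown because the gene is a known FSH target in Sertoli cells. The sequence is RefSeq's for build GRCr8, chr7:36782410-36782709, plus strand, 250 bases before to 50 after the annotated start, with TATAAA in capitals.
Kitlg: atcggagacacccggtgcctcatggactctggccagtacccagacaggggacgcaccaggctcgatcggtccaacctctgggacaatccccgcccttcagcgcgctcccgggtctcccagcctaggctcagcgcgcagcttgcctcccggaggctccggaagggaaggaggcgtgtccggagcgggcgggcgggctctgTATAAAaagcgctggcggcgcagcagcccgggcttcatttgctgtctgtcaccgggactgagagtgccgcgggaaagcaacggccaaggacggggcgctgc
TGACGT, part of the cAMP response element, was searched on both strands and has no match in this window. It occurs in 7.94% of 33469 RefSeq promoters of this length. TATAAA, searched the same way, starts 51 bases before the annotated start of Kitlg and occurs in 14.2% of promoters.

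Kit, the receptor of that ligand, had overlapping levels in the groups. Probe set D12524_at read 85.2 and 87.4 in the FSH antibody samples, against 93.3 and 73.6 in the control IgG samples. Its companion D12524_g_at, from the same sequence, read 87.9 and 77.5 in the FSH antibody samples, against 85.7 and 68.9 in the control IgG samples. The groups overlapped on both, and control IgG replicate 2 had the lowest reading on each. The log2 differences were 0.05 ± 0.18 and 0.09 ± 0.18 (limma, adjusted p = 0.970 and 0.940). On the scale with the added constant, the 95% interval of the first ran from 0.78-fold to 1.37-fold and that of the second from 0.80-fold to 1.41-fold. These intervals hold the changes compatible with the readings and are not a limit of detection with 4 arrays.

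Other cells that carry KIT were followed through fixed marker lists, counting 1 probe set per gene, the brightest. Over all 3164 genes so counted, 0.284% were called, 3.98% were higher and 3.89% lower at an unadjusted p under 0.05, 22.4% had groups apart with the FSH antibody samples higher and 15.1% with them lower. Among the steroidogenic and Leydig cell genes, 10 were tested and Star alone was called. Star, which brings cholesterol into mitochondria for steroid synthesis, fell to 25.5 and 12.8 in the FSH antibody samples, against 75.9 and 86.2 in the control IgG samples (−1.49 ± 0.23, limma adjusted p = 0.0423). Its call ended without control IgG replicate 1 (adjusted p = 0.392) and without control IgG replicate 2 (adjusted p = 0.634), as well as with quantile normalization, median centring, a constant of 1, no filter or no moderation. Fdx1, an electron carrier of mitochondrial steroid enzymes, gave −0.93 ± 0.19 (adjusted p = 0.116, past the threshold without FSH antibody replicate 1), and Cyp11a1, the cholesterol side-chain cleavage enzyme, gave 0.52 ± 0.21 (adjusted p = 0.575). The median of the list was −0.11, and its summed intensity was 2380.2 and 2665.3 in the FSH antibody samples and 3001.1 and 3000.5 in the control IgG samples. The part of Leydig cell RNA in the Kit readings was not tested. Mast cell genes were mostly read by dim probe sets. Of 10 mast cell genes on the array 3 were bright enough to be tested and 0 were called by limma (1 higher at an unadjusted p under 0.05), with a median of 0.33 (0.61 without control IgG replicate 1 and −0.020 without control IgG replicate 2). Tpsab1, a mast cell tryptase, read 34 and 37.5 in the FSH antibody samples, against 23.4 and 17.8 in the control IgG samples (0.50 ± 0.21, adjusted p = 0.603). Tpsb2, another tryptase, gave 0.33 ± 0.23 and Cma1, a chymase, 0.09 ± 0.21. The defining mast cell genes Cpa3, a carboxypeptidase, and Ms4a2, a chain of the IgE receptor, stayed under 17 on every array.

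Gdnf, the ligand of the second pathway, was read by 1 probe set just above the level for testing, at percentile 42.0 of brightness. L15305_s_at gave 25.5 and 31.0 in the FSH antibody samples, against 32.0 and 17.2 in the control IgG samples. The FSH antibody readings lay between the control IgG ones, so the spread within the control IgG group covered the difference of 0.15 ± 0.25 (limma, adjusted p = 0.923). The 95% interval ran from 0.75-fold to 1.62-fold on the scale with the added constant, which does not bound the change in intensity. With a constant of 1 the Gdnf difference was 0.25.

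The Gdnf promoter is shown beside that of Kitlg because it holds the motif that Kitlg lacks in this window. It is RefSeq's for GRCr8, chr2:58621077-58621376, plus strand, with the same bounds, and the capitals mark a TGACGT match on the minus strand, read here as ACGTCA, and a TATAAA.
Gdnf: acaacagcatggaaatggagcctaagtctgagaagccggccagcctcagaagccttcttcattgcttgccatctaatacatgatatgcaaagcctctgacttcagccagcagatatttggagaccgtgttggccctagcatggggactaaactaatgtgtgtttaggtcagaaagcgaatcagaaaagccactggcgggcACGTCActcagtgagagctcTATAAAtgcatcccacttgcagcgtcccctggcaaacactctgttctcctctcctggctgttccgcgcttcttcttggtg
The TGACGT match starts 50 bases and the TATAAA 30 bases before the annotated start. Of the 8 niche gene promoters, 1 held TGACGT (Gdnf) and 3 held TATAAA (Kitlg, Gdnf and Uchl1). Of the GC-rich motif GGGCGG, searched on both strands, 6 held at least 1 copy, beside 33.1% of all promoters, and Epcam held 4 copies. Different motifs did not overlap in the printed sequences, while copies of GGGCGG starting 67 and 63 bases before the start of Kitlg share bases. A match is a description of letters, and binding was not measured.

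Gfra1, the co-receptor that binds GDNF, had discordant probe sets. rc_AI070721_s_at read 31.7 and 33.4 in the FSH antibody samples, against 20.3 and 29.8 in the control IgG samples, so both FSH antibody readings were above both control IgG readings. U97142_at read 55.7 and 28.9 in the FSH antibody samples, against 48.3 and 40.3 in the control IgG samples, and here the FSH antibody arrays held both the highest and the lowest reading. The log2 differences were 0.25 ± 0.22 and −0.08 ± 0.25 (limma, adjusted p = 0.844 and 0.960). Both 95% intervals included 0, and the mean of both probe sets gave 0.08 ± 0.18.

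Ret, the receptor tyrosine kinase that signals for GDNF and GFRA1, had a higher mean in the FSH antibody samples on each of its 3 probe sets, and none was called. AF042830_at read 61.3 and 59.1 in the FSH antibody samples, against 55.9 and 44.2 in the control IgG samples. rc_AA859878_at read 96.8 and 65.1 in the FSH antibody samples, against 26.7 and 74.0 in the control IgG samples. rc_AI639318_at, too dim to be tested, read 14.8 and 14.3 in the FSH antibody samples, against 11 and 6.1 in the control IgG samples. The groups were apart on AF042830_at and rc_AI639318_at, and on rc_AA859878_at control IgG replicate 1 stood far below the other arrays. The log2 differences of the tested probe sets were 0.21 ± 0.19 (limma, adjusted p = 0.848) and 0.63 ± 0.32 (adjusted p = 0.678). The difference on rc_AA859878_at was the largest among the niche genes, and 3.03% of all tested probe sets had a larger absolute difference. Its 95% interval reached from 0.93-fold to 2.56-fold on the scale with the added constant. That value rested on single arrays. It was 0.09 without control IgG replicate 1, 1.16 without control IgG replicate 2 and 0.39 without FSH antibody replicate 1. Without FSH antibody replicate 2, the sample whose title disagrees with its source name, it was 0.86. That fit leaves a single FSH antibody array. Its only spread within a group is that of the control IgG readings, 26.7 and 74.0, so no call is drawn from it. In the alternatives that kept all arrays and tested it, rc_AA859878_at did not pass (adjusted p from 0.541 to 0.892, limma or its fit without moderation). Averaged over its 3 probe sets, Ret gave 0.39 ± 0.17 (adjusted p = 0.648). The tested Ret and Gfra1 probe sets lay in the dim range where most probe sets leaned higher in the FSH antibody samples. The dim rc_AI639318_at lay lower still, at percentile 26.5 of brightness. Of the probe sets up to the 40th percentile, 72.6% had a log2 difference above 0. In 36.1% both FSH antibody arrays were above both control IgG arrays. The part of this lean in the Ret and Gfra1 values was not tested.

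By the root mean square difference of mean-centred log2 values over the 4 arrays, the probe sets of other genes with profiles nearest to rc_AA859878_at were those of Ndufb6, a subunit of respiratory complex I (0.12), Asic2, an acid-sensing ion channel (0.13), and Gja4, a connexin (0.21). Each was lowest in control IgG replicate 1, with 420.9 for Ndufb6, 15.8 for Asic2 and 36.0 for Gja4. This order follows from choosing them by profile and is not a separate result. With 4 arrays many probe sets can share such an order.

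**Figure D2:**
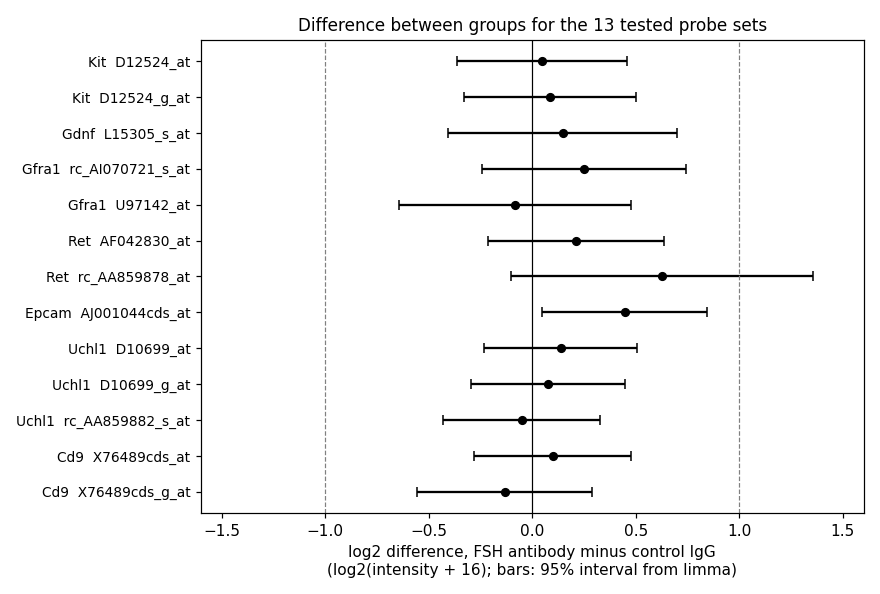
Log2 difference, FSH antibody minus control IgG, for the 13 tested niche gene probe sets. Points are limma estimates, bars are 95% intervals, and dashed lines mark 2-fold on the log2 scale with its added constant. The interval of Epcam alone lies wholly above 0, before any adjustment for the number of probe sets, and that of Ret rc_AA859878_at alone crosses a dashed line.

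Epcam, a cell adhesion molecule on the surface of spermatogonia and of many epithelia, had the lowest p of the niche genes and groups that did not overlap. AJ001044cds_at read 199.5 and 163.0 in the FSH antibody samples, against 128.9 and 127.5 in the control IgG samples. The control IgG readings were almost equal, and the FSH antibody replicates differed from each other by about as much as the lower one differed from the controls. Mean intensity was 181 ± 25.8 in the FSH antibody samples and 128 ± 0.990 in the control IgG samples (SD, n = 2 each). The log2 difference was 0.45 ± 0.18, with an unadjusted p of 0.0318 and an adjusted p of 0.575 by limma, so it did not pass. Of all tested probe sets 9.46% had a larger absolute difference. The value ran from 0.31 to 0.58 with 1 array left out. Other epithelial markers lay on both sides of 0. Of 5 tested, 0 were called by limma (1 higher at an unadjusted p under 0.05), with a median of 0.10. Cldn7, a tight junction claudin, gave 0.46 ± 0.20 (adjusted p = 0.605) on its brighter probe set, while Muc1, a mucin, gave 0.11 ± 0.19 and Cldn3, another claudin, −0.18 ± 0.38. Epididymal epithelium was followed by 3 tested genes, of which 0 were called (1 higher at an unadjusted p under 0.05). Adam7, a protein of the epididymis, gave 0.59 ± 0.21 (adjusted p = 0.534), Cst8, a cystatin, −0.17 ± 0.19 and Defb1, a defensin, 0.09 ± 0.17. Their summed intensity was 380.5 and 420.3 in the FSH antibody samples and 378.9 and 433.2 in the control IgG samples.

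Uchl1, a deubiquitinating enzyme used to mark spermatogonia and abundant in neurons, was read by 3 probe sets above percentile 95 of brightness, among them the one with the smallest SE of the 13. D10699_at read 973.3 and 1118.1 in the FSH antibody samples, against 980.2 and 914.5 in the control IgG samples. D10699_g_at, from the same sequence, read 896.8 and 1004.5 in the FSH antibody samples, against 955.7 and 847.7 in the control IgG samples. rc_AA859882_s_at read 1083.2 and 905.0 in the FSH antibody samples, against 1071.0 and 983.7 in the control IgG samples. The groups overlapped on all 3 probe sets. The log2 differences were 0.14 ± 0.16, 0.08 ± 0.17 and −0.05 ± 0.17 (limma, adjusted p from 0.883 to 0.964). The mean over the 3 probe sets was 0.05 ± 0.15, with a 95% interval of −0.29 to 0.40. In whole-testis RNA, fewer cells of a type and less RNA per cell cannot be told apart, so this value does not count spermatogonia.

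Cd9, a tetraspanin of spermatogonial stem cells that many other cells carry, also had overlapping groups. X76489cds_at read 153.6 and 171.6 in the FSH antibody samples, against 147.6 and 153.9 in the control IgG samples. X76489cds_g_at, from the same sequence, read 149.7 and 145.7 in the FSH antibody samples, against 141.4 and 189.1 in the control IgG samples. The groups overlapped on both, narrowly on the first. The log2 differences were 0.10 ± 0.17 and −0.13 ± 0.19 (limma, adjusted p = 0.927 and 0.896), and their mean per gene was −0.02 ± 0.16.

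**Figure D3:**
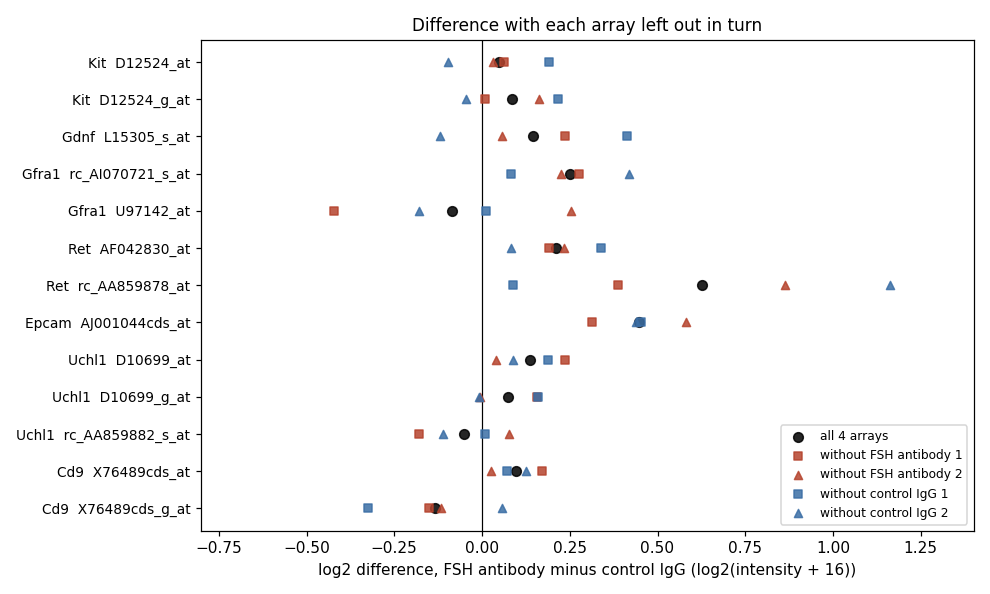
Log2 difference, FSH antibody minus control IgG, for the 13 tested niche gene probe sets with all 4 arrays (black) and with each array left out in turn (red for an FSH antibody array, blue for a control IgG array). Epcam stays between 0.31 and 0.58, whereas Ret rc_AA859878_at spans 0.09 to 1.16 and 7 probe sets cross 0.

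Around these genes, other parts of both pathways were counted from lists that leave the 8 genes out. Of the remaining GDNF family ligands and receptors, 4 were on the array, 2 were tested and 0 were called by limma (0 at an unadjusted p under 0.05 on the brightest probe set). Gfra2, the co-receptor of neurturin, read 60.4 and 74.1 in the FSH antibody samples, against 50 and 58.7 in the control IgG samples (0.24 ± 0.19, adjusted p = 0.822). Its second probe set gave 0.45 ± 0.20 (adjusted p = 0.610), with the groups apart on both. Ncam1, a neural cell adhesion molecule that can also bind GDNF with GFRA1, read 35.6 and 32.3 in the FSH antibody samples, against 39.8 and 54.6 in the control IgG samples (−0.33 ± 0.21, adjusted p = 0.747). Its other probe set, with the groups also apart, had a difference of −0.58 ± 0.21 (adjusted p = 0.535).

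Of 20 tested adaptors and kinases downstream of RET and KIT, 0 were called by limma, and 1 was higher and 0 lower at an unadjusted p under 0.05. The list had a median of 0.13, beside 0.03 over all tested genes. Of the 20, 9 had both FSH antibody arrays above both control IgG arrays, beside 22.4% of all tested genes. The opposite order held for 1, beside 15.1%. Pik3r1, Src, Stat5a, Ptpn6, Ptpn11 and Socs3 were on the array but too dim to be tested. Map2k2, the kinase directly above ERK, read 951.8 and 772.3 in the FSH antibody samples, against 657.3 and 620.8 in the control IgG samples (0.42 ± 0.17, adjusted p = 0.584), and its other probe sets gave 0.35 and 0.22. Stat5b, a transcription factor activated by cytokine receptors, gave 0.36 ± 0.17 (adjusted p = 0.642). Jak2, a kinase that activates it, had 0.38 ± 0.21 by the probe set counted, but 0.13 and −0.03 by its other probe sets. Among the probe sets not counted, picked out after their values were seen, 3 had an unadjusted p of under 0.05 and groups apart. Akt2, a kinase downstream of phosphoinositide 3-kinase, was lower by one of them (−0.72 ± 0.22, limma adjusted p = 0.44), against 0.18 ± 0.19 by the counted one. Nras, a small GTPase, was lower too (−0.43 ± 0.18, limma adjusted p = 0.58), against 0.24 ± 0.18, and Grb2, an adaptor, was higher (0.52 ± 0.21, limma adjusted p = 0.575), against −0.021 ± 0.17.

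Transcripts linked to GDNF in cultured rodent spermatogonia were lower for 3 of 6 tested genes at an unadjusted p under 0.05, and 0 were called by limma after adjustment. These were the only 3 of the 6 whose groups were apart with the FSH antibody samples lower. Over all tested genes 3.89% were lower at an unadjusted limma p under 0.05, and 15.1% had groups apart and lower. The median of the list was −0.30 (−0.34 to −0.037 over the alternatives, the highest with no filter). Fos went the other way with groups apart (0.28 ± 0.18, limma adjusted p = 0.761). It read 135.8 and 155.5 in the FSH antibody samples, against 129.6 and 105.8 in the control IgG samples. Of 11 list genes on the array, Lhx1, Pou3f1, Tspan8, Egr2 and Egr3 were too dim to be tested. Ccnd2, a G1 cyclin of differentiating spermatogonia, read 165.7 and 181.7 in the FSH antibody samples, against 256.3 and 302.8 in the control IgG samples. Its log2 difference was −0.64 ± 0.17 (adjusted p = 0.305), with −0.46 ± 0.18 on a dimmer probe set (adjusted p = 0.575). Dusp6, a phosphatase that inactivates ERK, read 44.3 and 25.3 in the FSH antibody samples, against 54.2 and 61.2 in the control IgG samples (−0.56 ± 0.23, adjusted p = 0.575). A second Dusp6 probe set was too dim to be tested, with overlapping groups. Mycn, a MYC family transcription factor, read 75.4 and 74.4 in the FSH antibody samples, against 112.9 and 99.3 in the control IgG samples (−0.42 ± 0.17, adjusted p = 0.575). Ccnd2 is made by other cells of the testis too, Sertoli cells among them.

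Of 16 tested niche factors other than KIT ligand and GDNF, 0 were called by limma, 2 were higher and 1 lower at an unadjusted p under 0.05, and the median was 0.19. Of the 16, 9 had both FSH antibody arrays above both control IgG arrays, and 0 had the opposite order. The shares over all tested genes were 22.4% and 15.1%. Aldh1a1, which makes retinoic acid in Sertoli cells, read 2813.3 and 2258.0 in the FSH antibody samples, against 2021.6 and 1744.2 in the control IgG samples (0.42 ± 0.17, adjusted p = 0.575). Fgf9, a fibroblast growth factor of the fetal testis, gave 0.51 ± 0.22 (adjusted p = 0.605). Vegfa, the vascular growth factor, gave −0.60 ± 0.26 (adjusted p = 0.610, past the threshold without FSH antibody replicate 1) with overlapping groups, and its 3 dim probe sets were not tested.

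**Figure D4:**
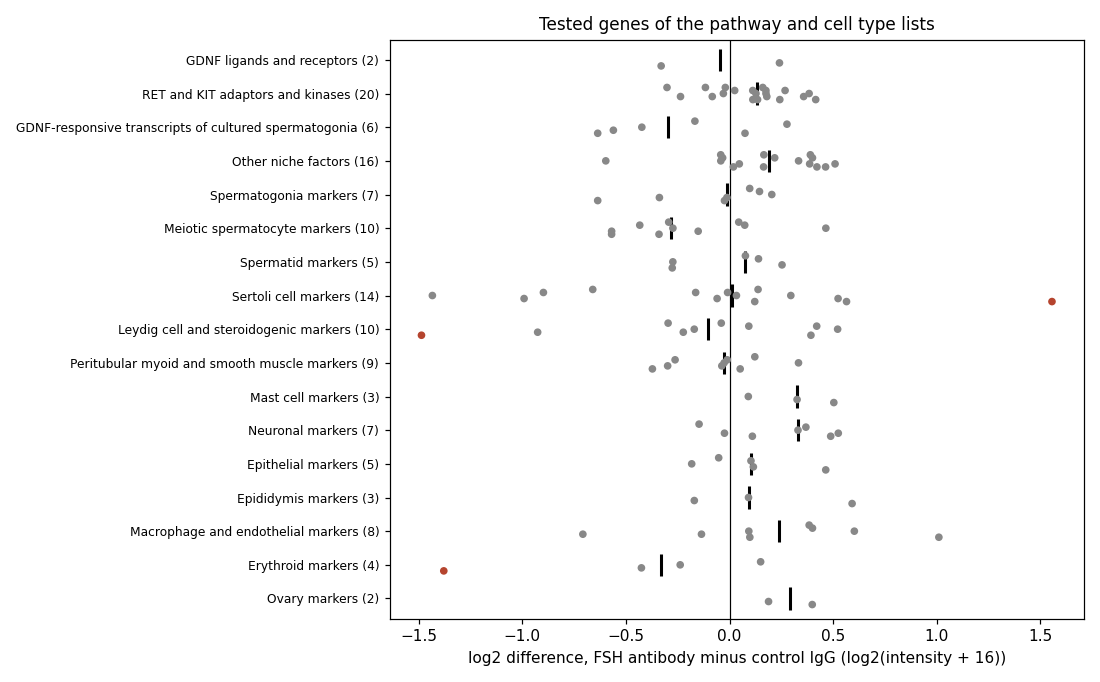
Log2 difference, FSH antibody minus control IgG, for each tested gene of the pathway and cell type lists, by its brightest probe set. The number of genes stands in parentheses, black bars are list medians, and red points are the 3 genes called by limma (Testin higher, Star and Alas2 lower).

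The germ cells themselves were followed by marker lists. Of 7 tested spermatogonia markers other than the 8 genes, 0 were called by limma (1 lower at an unadjusted p under 0.05, Ccnd2), with a median of −0.01 and a summed intensity of 1962.2 and 1943.4 in the FSH antibody samples, against 2011.8 and 1880.3 in the control IgG samples. Ddx4 gave −0.34 ± 0.19 (adjusted p = 0.692) and Itgb1, an integrin subunit, 0.20 ± 0.17 (adjusted p = 0.832). Itgb1 was the largest part of that sum, which therefore says little about the other genes. Itgb1 read 1083.2 and 1123.2 in the FSH antibody samples, against 1046.4 and 872.7 in the control IgG samples. Of the 7, 2 had groups apart and higher and 2 apart and lower, beside 22.4% and 15.1% of all tested genes. Later germ cells varied more between arrays of 1 treatment. The 10 tested spermatocyte genes summed to 1888.4 and 1318.4 in the FSH antibody samples and to 1611.3 and 2405.9 in the control IgG samples, with a median of −0.28 and 0 called by limma (0 at an unadjusted p under 0.05). Crem, a cAMP-responsive transcription factor, gave −0.34 ± 0.17, H2bc1, a testis histone, −0.57 ± 0.31 (past the threshold without FSH antibody replicate 1) and Adam2, a sperm surface protein, 0.46 ± 0.26. The 5 spermatid genes had a median of 0.08 with 0 called (0 at an unadjusted p under 0.05), among them the acrosin gene Acr at −0.28 ± 0.22, the transition protein Tnp1 at 0.25 ± 0.26 and Spa17 at −0.27 ± 0.38.

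Of 14 tested markers of the Sertoli cells, which make both ligands, Testin, a secreted protein, was called and rose to 114.4 and 127.9 in the FSH antibody samples, against 28.2 and 33.1 in the control IgG samples (1.56 ± 0.18, limma adjusted p = 0.0153). Without control IgG replicate 1 or 2 its adjusted p was 0.327 or 0.431, and it also missed the threshold with quantile normalization, no filter or no moderation. At an unadjusted p under 0.05, 3 were higher and 4 lower, and the median was 0.01. Serpina5, a protease inhibitor, gave −0.99 ± 0.16 (adjusted p = 0.0546), Aqp8, a water channel, −1.43 ± 0.28 (adjusted p = 0.0955), Inha, the inhibin alpha subunit, −0.90 ± 0.19 (adjusted p = 0.122) and Shbg, the androgen-binding protein, −0.66 ± 0.16 (adjusted p = 0.218). Without FSH antibody replicate 1, Serpina5, Aqp8 and Inha passed the threshold, as Serpina5 and Aqp8 did without FSH antibody replicate 2 and Serpina5 with the 60th percentile filter. Amh gave 0.52 ± 0.16 (adjusted p = 0.437), and the FSH receptor Fshr 0.30 ± 0.22 (adjusted p = 0.805) on its tested probe set, where leaving out each array gave 0.011 to 0.58.

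Other cells of the organ were counted in the same way. Peritubular myoid and smooth muscle markers, of cells that also make GDNF, had 9 tested genes with 0 called by limma (0 at an unadjusted p under 0.05), a median of −0.03, and Cald1 at −0.37 ± 0.18, Myl9 at −0.30 ± 0.17 and Cnn1 at 0.33 ± 0.19. Neuronal markers, of cells that carry RET and UCHL1, were higher in all arrays of the FSH antibody group for 5 of 7 tested genes. The share over all tested genes was 22.4%. The list had a median of 0.33 and 0 called by limma (1 higher at an unadjusted p under 0.05). Syn2, Nefm, Nefh, Chgb and Prph were too dim to be tested, and the part of the lean of dim probe sets in the tested values was not tested. Gap43, a growth cone protein, gave 0.49 ± 0.20, and the synaptic vesicle proteins Syp and Syn1 gave 0.52 ± 0.24 and 0.33 ± 0.17. Their summed intensity was 273.8 and 311.0 in the FSH antibody samples, against 219.1 and 231.3 in the control IgG samples, and its part in the Ret readings was not tested. Of 8 tested macrophage and endothelial markers, 5 had groups apart and higher and 1 apart and lower, beside 22.4% and 15.1% of all tested genes. Macrophage and endothelial markers (8 tested, median 0.24, 0 called, 2 higher and 1 lower at an unadjusted p under 0.05) included the endothelin Edn1 at 1.01 ± 0.18 (adjusted p = 0.0655, past the threshold without FSH antibody replicate 1 or 2), the complement chain C1qb at −0.71 ± 0.23 (its other tested probe set had 0.06), and the lysozyme Lyz2 at 0.60 ± 0.22. Of 4 erythroid genes Alas2, the erythroid enzyme of heme synthesis, fell (−1.38 ± 0.21, limma adjusted p = 0.0423; 0.359 without control IgG replicate 1, 0.634 without control IgG replicate 2). Its call also ended with quantile normalization, median centring, a constant of 1, no filter, no intensity trend or no moderation. The globins Hbb and Hbb-b1 gave −0.43 ± 0.25 (−0.85 to −0.0042 with each array left out) and −0.24 ± 0.24, and the list median was −0.33. The 2 tested ovary genes, Zp1 and Zp2, gave 0.40 ± 0.20 and 0.19 ± 0.17, with neither called.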

How the data were processed

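The authors deposited 1 table of linear intensities, 1 value per probe set and array, from Affymetrix rat U34 arrays of set A. The labels name a standard Affymetrix protocol for labelling. The sources used here do not give the software, background correction or scaling. Without its lowest and highest 2%, the mean was 125 on all 4 arrays, so a common scale had been set before deposit. No detection calls were used and no further normalization was applied. The number of arrays limits the precision.

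Groups came from source names. Probe sets were named by the platform's annotation, updated through Entrez identifiers with RefSeq genes of assembly GRCr8: 7018 of 8799 probe sets had 1 symbol, 308 several and 1473 none. All 8 promoters matched by symbol. Control probe sets (59) were left out. The analysis used log2(intensity + 16). Probe sets under the 40th percentile of mean log2 value were set aside, and lmFit and eBayes with an intensity trend (limma 3.58.1, R 4.3.3) compared the groups, two-sided, with Benjamini-Hochberg adjustment over 5244 probe sets and a threshold of 0.05. The 17 gene lists were counted by the brightest probe set of each gene, and no list was tested. Named genes were all 8, in each list the 3 genes of lowest p, called list genes, Star, Inha, Shbg, Amh and Fshr, and the 3 nearest profiles. Fos, dim list genes and the ovary genes were named after their values were seen. The genes, lists and tests were chosen with earlier results of these data known. Alternatives were quantile normalization, median centring, a constant of 1 or 64, no filter or the 60th percentile, no trend, no moderation, each array left out, the replicate number as a block and gene means. The fit code was checked on simulated data drawn with limma's own fitted variances. That check does not cover the lean of dim probe sets or the labels.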

Additional observations from a re-analysis of the deposited data

How the results depend on the processing

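The count of called niche gene probe sets stayed at 0 in every alternative that kept all arrays. For the niche genes, fits with an array left out, where a group holds a single array, are read for their differences only. Of the 13 tested probe sets, 6 kept their direction in every alternative and 7 turned, all of them only when an array was left out. Their log2 differences then ran from −0.10 to 0.19 and from −0.045 to 0.22 (Kit D12524_at and D12524_g_at), −0.12 to 0.41 (Gdnf), −0.42 to 0.25 (Gfra1 U97142_at), −0.0098 to 0.16 (Uchl1 D10699_g_at), −0.18 to 0.076 (Uchl1 rc_AA859882_s_at) and −0.33 to 0.057 (Cd9 X76489cds_g_at). Against 14 probe sets (6 higher, 8 lower) called over the whole table, 0 were called with quantile normalization, 0 with no filter, 0 with no moderation and 4 with median centring (3 higher, 1 lower), where limma, or its fit without moderation, gave 421, 702, 352 and 405 at an unadjusted p under 0.05, and leaving out each array gave 0 to 153. Of the list genes 3 were called, against 0 with quantile normalization, 0 with no filter, 0 with no moderation, 1 with median centring, 1 with a constant of 1, 1 with gene means, and 0 to 14 with an array left out. Of 52 named list genes, 44 kept their direction throughout and 8 turned when an array was left out, with ranges of −0.036 to 0.27 (Muc1), −0.34 to 0.0018 (Cst8), −0.81 to 0.44 (Cldn3), −0.97 to 0.42 (Spa17), −0.020 to 0.67 (Tpsb2), −0.045 to 0.55 (Tnp1), −0.60 to 0.13 (Hbb-b1) and −0.093 to 0.27 (Cma1). Of 17 list medians, 7 had 1 sign in every alternative and 10 took both, namely those of the GDNF ligands and receptors and of the spermatogonia, spermatid, Sertoli, Leydig, peritubular, mast cell, epithelial, epididymis and erythroid markers. The deviations of same-numbered arrays correlated at 0.0024, so no pairing by replicate number was seen. With 2 arrays per group the crossed numbers give the same value with the other sign. This check cannot settle whether the samples were paired. With the replicate number as a block, 39 probe sets and 8 list genes were called and 0 niche gene probe sets (2 at an unadjusted p under 0.05 by limma), and Serpina5, Aqp8, Inha, Fdx1 and Edn1 passed the threshold. The cause of these changes was not tested, except that filters change the number tested and an array left out leaves 1 sample assumed to vary like the other group. Signal over background is unknown, which limits Kitlg and the dim Ret probe set most.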
